A study of Mus musculus with 12 samples.

Results

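The genes of autophagy and of the lysosome were followed in the livers of Apoe knockout mice that had received an AAV, an adeno-associated virus used to deliver a gene. The set was a fixed list of 39 gene symbols, and all 39 were found in the deposited table of 54532 genes. It holds 15 autophagy genes, 22 lysosome genes and the transcription factor genes Tfeb and Tfe3, which are described apart from both. The 6 Rspo2-AAV livers came from mice given a vector for Rspo2, a secreted protein that strengthens Wnt signalling, and the 6 Control livers from mice given a Gfp-AAV vector. Apoe, the apolipoprotein E gene, was knocked out in both groups per the labels, so no liver with intact Apoe and no liver without a vector was compared. The sources used here did not give age, sex, diet, vector promoter or time after injection. The labels number the Rspo2-AAV samples 1, 2, 4, 5, 6 and 7 and the Control samples 1 to 6. They do not state that every sample was its own animal, and the spread behind each p-value may therefore be partly technical.

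The libraries held 14295644 to 22195576 reads, recovered from the FPKM values (fragments scaled to gene length and library size). Rspo2 was at 49.9 to 573 FPKM in the Rspo2-AAV libraries and had 0 reads in every Control library (exact two-sided permutation p = 0.00216, the smallest that 924 splits allow). Alb, the albumin gene that marks hepatocytes, averaged 12860 FPKM in Rspo2-AAV and 20512 FPKM in Control livers. Some libraries stood apart. Xist, expressed from an inactivated X chromosome, was at 28.0 and 5.57 FPKM in Rspo2-AAV 1 and 2 and at 42.0 FPKM in Control 3, and under 1 FPKM in the other 9. Pancreatic acinar genes took 6.21%, 0.562%, 0.0649% and 0.00675% of the reads of Rspo2-AAV 4, 5, 6 and 7, against at most 0.0034% in Rspo2-AAV 1 and 2 and the Control libraries. Mitochondrially encoded genes took 10.5% of the reads of Rspo2-AAV 2, against 3.53% to 5.89% in the other 11 libraries. The 3 libraries with Xist carry numbers from 1 to 3, so values are also given separately for numbers 1 to 3 and numbers 4 to 7. The labels do not call these numbers a batch.

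Autophagy is the route by which a cell wraps its own cytoplasm, damaged organelles or lipid droplets in a double membrane and delivers them to the lysosome. A kinase complex built around Ulk1 or Ulk2 starts the process, a lipid kinase complex that contains Beclin 1 marks the membrane, and WIPI proteins read that mark. The Atg conjugation enzymes then attach ubiquitin-like proteins of the LC3 and GABARAP families to the membrane, where receptors such as p62 dock cargo. Lysosomes finish the work with cathepsins, glycosidases and lipases inside a membrane lined with LAMP proteins. In liver, autophagy supplies amino acids during fasting and turns over lipid droplets. AMPK, the energy sensor named in the title of the series, phosphorylates ULK1, and mTORC1 restrains both ULK1 and the transcription factor TFEB. Such control acts on proteins, which RNA levels do not measure.

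Of the 39 genes, 4 were lower in Rspo2-AAV than in Control livers and 0 were higher (limma on log2(FPKM + 0.5), adjusted p under 0.05 over all 13447 genes tested). The 4 were Ulk1 and Wipi1 among the autophagy genes and Lamp1 and Ctsc among the lysosome genes. All 39 passed the filter, a mean of at least 0.5 FPKM over the 12 libraries. The 4 lower genes were 10.3% of the list, beside 2.65% of all tested genes called lower, 2.55% called higher and 5.2% called in either direction. Log2 changes were negative for 12 of 15 autophagy genes (median -0.11) and for 16 of 22 lysosome genes (median -0.23), beside a median of 0.0025 over all genes tested. An unadjusted p under 0.05 was found for 15 of the 39, or 38.5%, beside 21.5% of all genes tested. The changes were small: the 35 genes that were not called lay between -0.76 and 0.35 on the log2 scale. These shares describe the list without testing it, and the list was chosen with earlier results of these data known.

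The calls depended on which libraries were compared. Without Rspo2-AAV 4 and 5, the libraries with the most pancreatic reads, 2 autophagy genes and 1 lysosome gene were lower, beside 0.892% of all tested genes lower and 0.87% higher. Rspo2-AAV 6 and 7, with smaller shares of pancreatic reads, stayed in that fit. Without the 3 libraries with Xist, 3 autophagy and 5 lysosome genes were lower and 1 lysosome gene was higher, beside 6.75% of all tested genes lower and 6% higher. Among numbers 4 to 7 alone, 3 autophagy genes (Ulk1, Ulk2 and Gabarapl1) and 3 lysosome genes (Lamp1, Ctsc and Ctss) were lower, and 2 lysosome genes (Ctsl and Npc2) were higher, beside 6.92% of all tested genes lower and 6.34% higher. In both of these subsets more genes were thus called over the whole table as well as in the list. Among numbers 1 to 3 alone, with 2 Rspo2-AAV and 3 Control libraries, limma called 0 of the 39 genes and 0% of all genes, while 3 of the 39 and 955 of all genes had an unadjusted p under 0.05. Whether a change differed between the numbers was not tested. Within the Rspo2-AAV group, pairs among 5, 6 and 7 differed least, with a chi-square per degree of freedom of 18.2 to 34.8 on the recovered reads. The closest Control pair, 5 and 6, had 33.8. Pairs that held Rspo2-AAV 1, 2 or 4 had 135 to 282, and Control pairs 33.8 to 202.5. The part of this closeness in the calls was not tested.

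**Figure D1:**
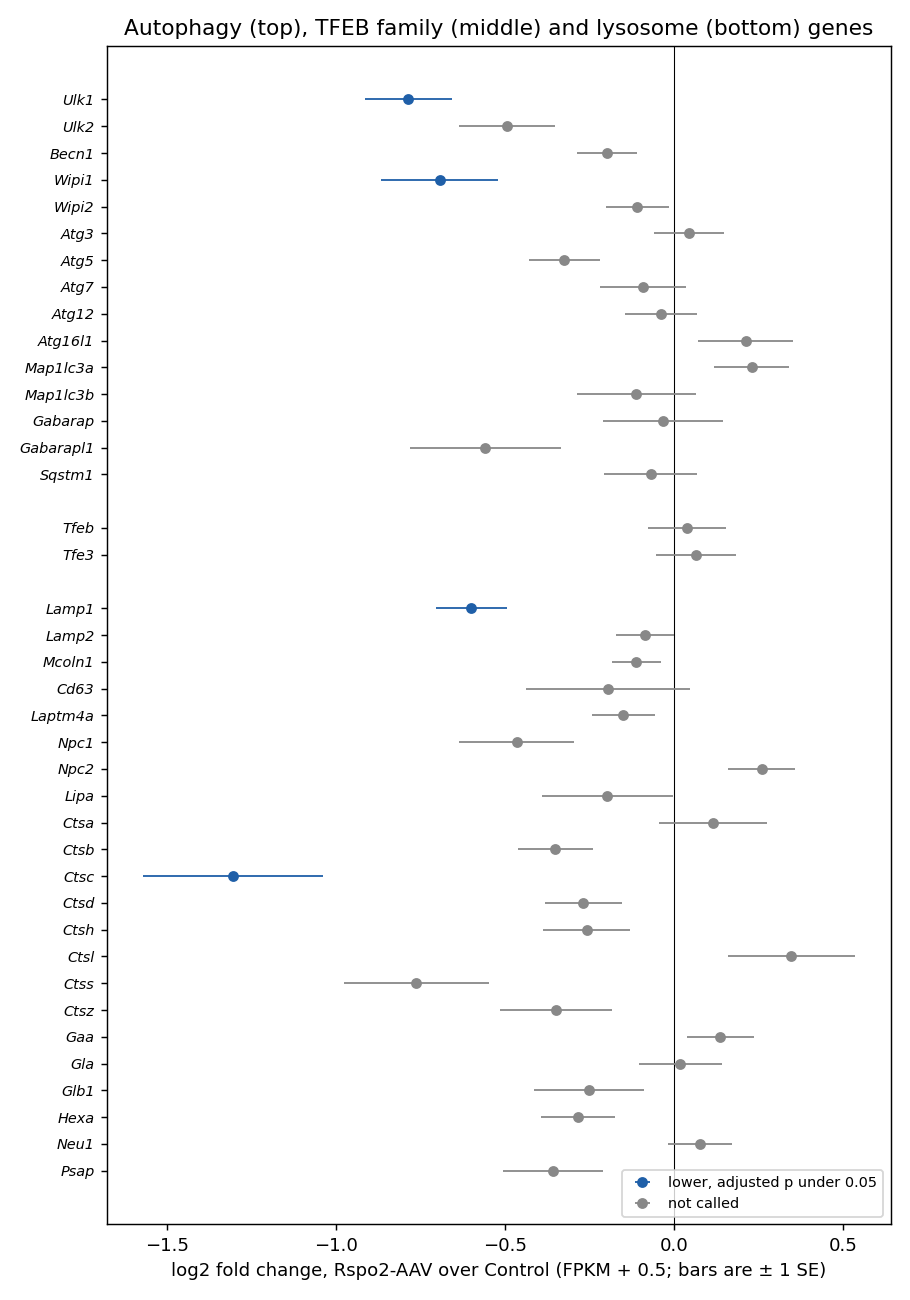
Log2 fold change of Rspo2-AAV over Control livers for each of the 39 genes, on the log2(FPKM + 0.5) scale, with bars of 1 standard error from limma (6 libraries per group). Blue points passed an adjusted p of 0.05: Ulk1, Wipi1, Lamp1 and Ctsc, all lower in Rspo2-AAV livers.

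Ulk1, the kinase that starts autophagosome formation, fell in Rspo2-AAV livers. It ran from 8.70 through a median of 11.7 to 14.0 FPKM in Rspo2-AAV libraries, against 16.7, 19.9 and 25.1 FPKM in Control libraries. All 6 Rspo2-AAV libraries lay below all 6 Control libraries, which held for 1.62% of all tested genes, and 3.24% were apart in either direction. The log2 change was -0.79 ± 0.13 (SE, limma adjusted p = 0.00508), a level 0.580 times that of Control. The gene (ENSMUSG00000029512) lies on the minus strand at chr5:110784488-110810097 of GRCm38 and had 822 to 2996 reads per library. Its call held without each library in turn (-0.84 to -0.71). The log2 change was -0.76 among numbers 4 to 7 (adjusted p = 0.0217) and -0.78 among numbers 1 to 3, where it was not called (adjusted p = 0.594).

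Ulk2, the second kinase of this pair, was at 7.26, 9.20 and 12.3 FPKM (lowest, median and highest) in Rspo2-AAV libraries, against 10.5, 13.6 and 15.9 FPKM in Control libraries. The groups overlapped, through Rspo2-AAV 4 on one side and Control 1 and 3 on the other, and the change was not called (-0.49 ± 0.14, adjusted p = 0.0628). It was called among numbers 4 to 7 (-0.60, adjusted p = 0.0284) and without any one of Control 1, Control 3 and Rspo2-AAV 4. Becn1, which encodes Beclin 1, was at 6.14 ± 0.434 FPKM in Rspo2-AAV and 7.14 ± 0.723 FPKM in Control livers (SD, n = 6 each), with a log2 change of -0.20 ± 0.09 (adjusted p = 0.215). Its exons overlap 3104 bases of Cntd1 on the other strand, which was near 0 in these livers (mean 0.0335 FPKM).

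Wipi1 also fell. WIPI proteins bind the lipid mark made by the Beclin 1 complex and bring in the conjugation machinery. Wipi1 was at 1.88, 3.06 and 4.23 FPKM (lowest, median and highest) in Rspo2-AAV libraries, against 4.11, 4.82 and 6.27 FPKM in Control libraries. Rspo2-AAV 6 and 7 were lowest, and only Rspo2-AAV 4 reached above a Control library, Control 4. The log2 change was -0.69 ± 0.17 (adjusted p = 0.0371). Wipi1 (ENSMUSG00000041895, chr11:109573331-109611967, minus strand) had 124 to 505 reads per library, and its call was lost in 8 of 12 fits that left out 1 library, with log2 changes from -0.79 to -0.60 and adjusted p from 0.0208 to 0.0868 over all 12. Those 8 left out Control 2, 3, 4, 5 or 6 or Rspo2-AAV 5, 6 or 7. It was also lost with TPM scaling and with no filter on low values (adjusted p = 0.0960 and 0.0811). Wipi1 was not called among numbers 4 to 7 (-0.69, adjusted p = 0.105) or among numbers 1 to 3 (-0.60, adjusted p = 0.695). Wipi2, its relative that recruits Atg16l1, was at 9.63 ± 1.16 FPKM in Rspo2-AAV and 10.4 ± 0.810 FPKM in Control livers (SD, n = 6 each; -0.11 ± 0.09, adjusted p = 0.545).

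None of the 5 conjugation genes was called, with adjusted p from 0.0955 to 0.876. Atg5, which joins Atg12 in the conjugate that attaches LC3, came nearest. It ran from 15.3 through 18.2 to 21.9 FPKM in Rspo2-AAV libraries, against 21.4, 22.2 and 28.0 FPKM in Control libraries (-0.32 ± 0.11, adjusted p = 0.0955). Of the Rspo2-AAV libraries only Rspo2-AAV 2 reached the Control range, above Control 3 and, by a small margin, Control 6, and without Rspo2-AAV 2 the change was called (-0.38, adjusted p = 0.0420). Atg3 and Atg7, the E2-like and E1-like enzymes, had log2 changes of 0.05 ± 0.10 and -0.09 ± 0.13. Atg12, the ubiquitin-like partner of Atg5, and Atg16l1, which places the conjugate on the membrane, had -0.04 ± 0.11 and 0.21 ± 0.14. Atg16l1 was highest in Rspo2-AAV 1 (7.55 FPKM) and Control 3 (7.52 FPKM), which both belong to the libraries with Xist.

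None of the 4 genes for the ubiquitin-like tags of the autophagosome was called. Gabarapl1 had the largest log2 change of the 4. It was at 70.5, 110 and 165 FPKM (lowest, median and highest) in Rspo2-AAV libraries, against 114, 159 and 221 FPKM in Control libraries. Rspo2-AAV 5, 6 and 7 lay below every Control library, while Rspo2-AAV 1, 2 and 4 lay among them. The change was not called (-0.56 ± 0.22, adjusted p = 0.171). It was -0.95 among numbers 4 to 7 (adjusted p = 0.0315) and 0.09 among numbers 1 to 3 (adjusted p = 0.966). Its close relative Gabarap had -0.03 ± 0.18, with 1 high library in each group, Rspo2-AAV 2 at 137 FPKM and Control 1 at 190 FPKM.

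Map1lc3a and Map1lc3b encode LC3A and LC3B, of which LC3B is the usual marker of autophagosomes. Map1lc3a averaged 51.7 ± 8.15 FPKM in Rspo2-AAV and 43.7 ± 2.95 FPKM in Control livers (SD, n = 6 each; 0.23 ± 0.11, adjusted p = 0.251). Map1lc3b averaged 16.8 ± 4.85 FPKM in Rspo2-AAV and 17.7 ± 2.38 FPKM in Control livers (-0.11 ± 0.18, adjusted p = 0.768). Per length, Map1lc3a was thus the higher of the pair in both groups. This order rests on the deposited gene lengths. Map1lc3b had 1272 to 3849 reads per library over 7517 bases, against 704 to 1461 reads over 1181 bases for Map1lc3a. Within the Rspo2-AAV group Map1lc3b split as Gabarapl1 did, at 20.02 to 23.0 FPKM in numbers 1, 2 and 4 and 11.6 to 13.6 FPKM in numbers 5 to 7. Sqstm1, which encodes the cargo receptor p62, was at 147 ± 23.6 FPKM in Rspo2-AAV and 154 ± 21.4 FPKM in Control livers (-0.07 ± 0.14, adjusted p = 0.818). It was the highest of the 15 autophagy genes per length over the 12 libraries, and the groups overlapped throughout.

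**Figure D2:**
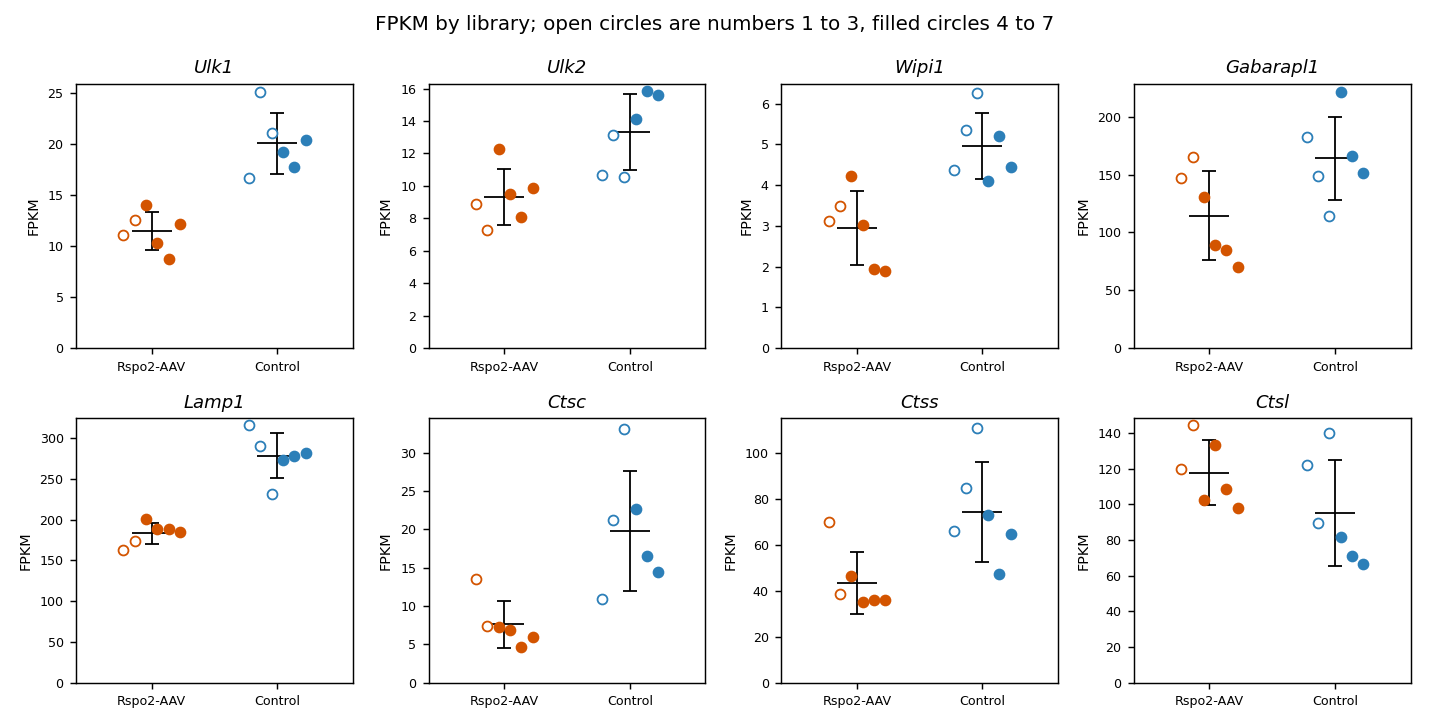
FPKM of 8 genes in each library, with Rspo2-AAV left and Control right; black marks are the group mean and SD (n = 6 each), open circles are libraries numbered 1 to 3 and filled circles those numbered 4 to 7. The groups are apart for Ulk1 and Lamp1. They meet through 1 Rspo2-AAV library for Wipi1, Ctsc, Ulk2 and Ctss, and overlap more widely for Gabarapl1 and Ctsl.

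Tfeb and Tfe3 encode basic helix-loop-helix factors that enter the nucleus when mTORC1 is inactive and switch on lysosome and autophagy genes. Neither was called. Tfeb was at 2.36 ± 0.385 FPKM in Rspo2-AAV and 2.28 ± 0.321 FPKM in Control livers (SD, n = 6 each; 0.04 ± 0.12, adjusted p = 0.891). Tfe3 was at 3.98 ± 0.753 FPKM in Rspo2-AAV and 3.74 ± 0.257 FPKM in Control livers (0.06 ± 0.12, adjusted p = 0.806). Both genes stood among the 3 lowest of the 39 per length, together with Gla.

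TFEB and TFE3 bind the CLEAR element, whose centre is the palindrome CACGTG, usually flanked as TCACGTG on one strand or the other. Promoter windows from RefSeq (GRCm38.p6, 250 bases before to 50 after a gene start) were given for 32 of the 39 genes. TCACGTG or its reverse complement CACGTGA was found in 9 of the 32 (28.1%), beside 7.07% of the 9420 tested genes with a window. The shorter CACGTG, which every such match contains, was found in 11 of the 32 (34.4%), beside 11.8%. These shares come from the genome and not from the libraries. A high share is known beforehand for targets of TFEB and TFE3, so it is no result of these data. Lysosome genes held the longer motif in 7 of 19 windows and autophagy genes in 2 of 11. The 2 were Atg3 and Atg7. The window of Atg7 (chr6:114670846-114671145) lies inside the deposited gene, which starts at 114643097, and so not at that start. The windows of Tfeb and Tfe3 held neither. Of the 9 genes with the longer motif, 1 was called lower, Lamp1, and the 9 had log2 changes from -0.60 to 0.14 (median -0.09). Of the 23 with a window but without it, 3 were called lower, Ulk1, Wipi1 and Ctsc, and the 23 had -1.30 to 0.35 (median -0.19). No window was given for Map1lc3a, Becn1, Atg12, Atg16l1, Ctsb, Ctsh and Npc1.

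Lamp1 had the most matches of the 32 genes with a window, with 4 copies of CACGTG within 52 bases just before its start. Of the 9420 tested genes with a window, 4 had at least 4 copies (0.0425%). The 200 bases before the start of Lamp1 are shown because it is the 1 gene of the list that both fell and holds the motif. One match in each of 5 others is shown beside it, from genes whose change was not called, with log2 changes from -0.27 to 0.02. Matches in Atg3, Ctsa and Gaa, also not called, are not shown. Their log2 changes were 0.05, 0.11 and 0.14. Capitals mark the motif, with flanking T or A where it completes TCACGTG or CACGTGA, and each sequence is on the strand of its gene, 5′ to 3′.
Lamp1, chr8:13158961-13159160, plus strand: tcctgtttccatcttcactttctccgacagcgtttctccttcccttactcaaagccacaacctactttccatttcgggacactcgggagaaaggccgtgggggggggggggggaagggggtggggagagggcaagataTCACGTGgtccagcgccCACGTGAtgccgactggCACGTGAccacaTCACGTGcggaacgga
Mcoln1, chr8:3500462-3500491, plus strand: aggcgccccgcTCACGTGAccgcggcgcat
Ctsd, chr7:142387908-142387937, minus strand: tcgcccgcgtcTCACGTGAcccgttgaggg
Gla, chrX:134601182-134601211, minus strand: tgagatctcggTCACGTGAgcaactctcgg
Glb1, chr9:114401018-114401047, plus strand: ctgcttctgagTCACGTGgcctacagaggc
Atg7, chr6:114670952-114670981, plus strand: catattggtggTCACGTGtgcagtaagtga
A match is a run of letters and not a measured binding site, and other factors bind CACGTG as well.

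Lamp1, an abundant glycoprotein of the lysosomal membrane, fell in Rspo2-AAV livers. It was at 163, 187 and 200 FPKM (lowest, median and highest) in Rspo2-AAV libraries, against 231, 280 and 316 FPKM in Control libraries. No library of one group reached the range of the other. The log2 change was -0.60 ± 0.11 (adjusted p = 0.00735), a level 0.660 times that of Control. The spread was narrow, 183 ± 13.1 FPKM in Rspo2-AAV and 278 ± 27.6 FPKM in Control livers (SD, n = 6 each). Lamp1 (ENSMUSG00000031447, chr8:13159161-13175338, plus strand) had 7133 to 14437 reads per library. The call held without each library in turn (-0.65 to -0.56), and the log2 change was -0.54 among numbers 4 to 7 (adjusted p = 0.00430) and -0.72 among numbers 1 to 3 (adjusted p = 0.695). Its exons share 249 bases with Grtp1 on the other strand, a gene at 6.12 FPKM in Rspo2-AAV and 6.46 FPKM in Control livers.

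Lamp2, the partner of Lamp1 that also forms the receptor of chaperone-mediated autophagy, was not called. It was at 65.6 ± 4.91 FPKM in Rspo2-AAV and 69.5 ± 2.75 FPKM in Control livers (SD, n = 6 each; -0.09 ± 0.09, adjusted p = 0.608). Lamp1 was thus the higher of the pair per length in both groups. In reads per library the 2 were close. Lamp2 had 8513 to 15199 over 9552 deposited bases, and Lamp1 7133 to 14437 over 2675 bases. Mcoln1, the calcium channel whose opening activates TFEB, had -0.11 ± 0.07 (adjusted p = 0.407), with the narrowest spread of the lysosome genes in Rspo2-AAV livers (5.57 ± 0.209 FPKM, against 6.07 ± 0.390 FPKM in Control livers). Laptm4a, a small transmembrane protein, had -0.15 ± 0.09. Cd63, a tetraspanin of late endosomes, had -0.19 ± 0.24 and ran from 2.01 to 6.65 FPKM in Rspo2-AAV libraries, against 3.25 to 5.57 FPKM in Control libraries. Its highest value was in Rspo2-AAV 4, the library with the most pancreatic reads, whose part in this value was not tested.

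Npc1, Npc2 and Lipa handle lipoprotein cholesterol in the lysosome: Lipa hydrolyses cholesteryl esters and triglycerides, Npc2 takes up the freed cholesterol and Npc1 exports it. None was called, and the pair that works in sequence had opposite signs. Npc2 was at 15.9, 19.95 and 20.9 FPKM (lowest, median and highest) in Rspo2-AAV libraries, against 13.4, 16.8 and 17.9 FPKM in Control libraries. All but Rspo2-AAV 2 lay above every Control library (0.26 ± 0.10, adjusted p = 0.147), and the change was called among numbers 4 to 7 (0.39, adjusted p = 0.0333). Npc1 was at 5.58, 9.39 and 10.9 FPKM in Rspo2-AAV libraries, against 9.52, 12.3 and 16.0 FPKM in Control libraries (-0.46 ± 0.17, adjusted p = 0.131). Exons of Npc1 share 511 bases with Rmc1 on the other strand. Lipa averaged 62.7 ± 13.4 FPKM in Rspo2-AAV and 72.2 ± 18.1 FPKM in Control livers (SD, n = 6 each; -0.20 ± 0.19, adjusted p = 0.604). Its lowest library was Rspo2-AAV 2 and its highest Control 4.

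The 8 cathepsins, the proteases of the lysosome, had a median log2 change of -0.31, with 1 lower, 0 higher and 7 not called. Ctsc encodes cathepsin C, a dipeptidyl peptidase that activates the serine proteases of immune cells, and it had the largest change of the 39 genes. It was at 4.73, 7.10 and 13.5 FPKM (lowest, median and highest) in Rspo2-AAV libraries, against 10.9, 18.9 and 33.0 FPKM in Control libraries. The groups met only where Rspo2-AAV 1 at 13.5 FPKM stood above Control 1 at 10.9 FPKM. The log2 change was -1.30 ± 0.27 (adjusted p = 0.0151), a level 0.405 times that of Control. Ctsc (ENSMUSG00000030560, chr7:88278085-88310888, plus strand) had 400 to 3504 reads per library. Its call held without each library in turn (-1.48 to -1.14) and was lost without Rspo2-AAV 4 and 5 together (-1.29, adjusted p = 0.0780). Among numbers 4 to 7 the log2 change was -1.44 (adjusted p = 0.00503), and among numbers 1 to 3 it was -0.95 (adjusted p = 0.754).

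Ctss, the cathepsin of antigen-presenting cells that trims the class II invariant chain, came next. It was at 35.1, 37.3 and 69.8 FPKM (lowest, median and highest) in Rspo2-AAV libraries, against 47.2, 69.6 and 111 FPKM in Control libraries. Rspo2-AAV 1 was the one library of its group within the Control range, and the change was not called (-0.76 ± 0.21, adjusted p = 0.0581). It was called without Rspo2-AAV 1 (-0.91, adjusted p = 0.0168), without Control 5 (-0.88, adjusted p = 0.0368) and among numbers 4 to 7 (-0.66, adjusted p = 0.0419).

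Ctsb, Ctsd, Ctsz and Ctsh had smaller negative log2 changes, and none of them was called. Ctsb averaged 128 ± 15.6 FPKM in Rspo2-AAV and 162 ± 12.8 FPKM in Control livers (SD, n = 6 each; -0.35 ± 0.11, adjusted p = 0.0873). Exons of Ctsb share 774 bases with Fdft1 on the other strand, a gene of cholesterol synthesis with a mean of 65.5 FPKM in Rspo2-AAV and 8.55 FPKM in Control livers. The strand setting of the counting is unknown here, and the part of the shared bases in the Ctsb values was not tested. Ctsd, the main aspartic protease, averaged 148 ± 8.13 FPKM in Rspo2-AAV and 179 ± 26.3 FPKM in Control livers (-0.27 ± 0.11, adjusted p = 0.193). Ctsz, a carboxypeptidase, had -0.35 ± 0.17 and Ctsh, an aminopeptidase, -0.26 ± 0.13 (adjusted p = 0.246 and 0.268).

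Ctsl and Ctsa had positive log2 changes that were not called. Ctsl, a cysteine protease, was at 98.1, 114 and 144 FPKM (lowest, median and highest) in Rspo2-AAV libraries, against 66.7, 85.4 and 140 FPKM in Control libraries (0.35 ± 0.19, adjusted p = 0.314). Among numbers 4 to 7 all 4 Rspo2-AAV libraries lay above all 3 Control libraries (0.59, adjusted p = 0.0246), and Control 1 and 3 were the high Control libraries. Ctsa, which protects beta-galactosidase and neuraminidase, had 0.11 ± 0.16 (adjusted p = 0.731). Its mean was raised by Rspo2-AAV 2 at 64.0 FPKM, with the other 5 at 32.5 to 38.3 FPKM, and without that library the log2 change was -0.03. Exons of Ctsa share 495 bases with Pltp on the other strand, which averaged 56.4 FPKM in Rspo2-AAV and 45.7 FPKM in Control livers.

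The glycosidases and the saposin precursor were not called. Psap, whose product is cut into the saposins that lift sphingolipids out of the membrane, was the highest of the 39 genes per length. It was at 175, 236 and 301 FPKM (lowest, median and highest) in Rspo2-AAV libraries, against 247, 311 and 328 FPKM in Control libraries (-0.36 ± 0.15, adjusted p = 0.179). Hexa, the alpha subunit of beta-hexosaminidase, had -0.28 ± 0.11 (adjusted p = 0.150) and Glb1, the lysosomal beta-galactosidase, -0.25 ± 0.16. Glb1 was lowest in Rspo2-AAV 5 and 6, at 2.86 and 3.52 FPKM. Gaa, the acid alpha-glucosidase that degrades glycogen, averaged 29.4 ± 1.86 FPKM in Rspo2-AAV and 26.8 ± 3.22 FPKM in Control livers (SD, n = 6 each; 0.14 ± 0.10, adjusted p = 0.457). Neu1, the sialidase, and Gla, the alpha-galactosidase, had 0.08 ± 0.09 and 0.02 ± 0.12. Gla had the fewest reads of the list, 94 to 177 per library.

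**Figure D3:**
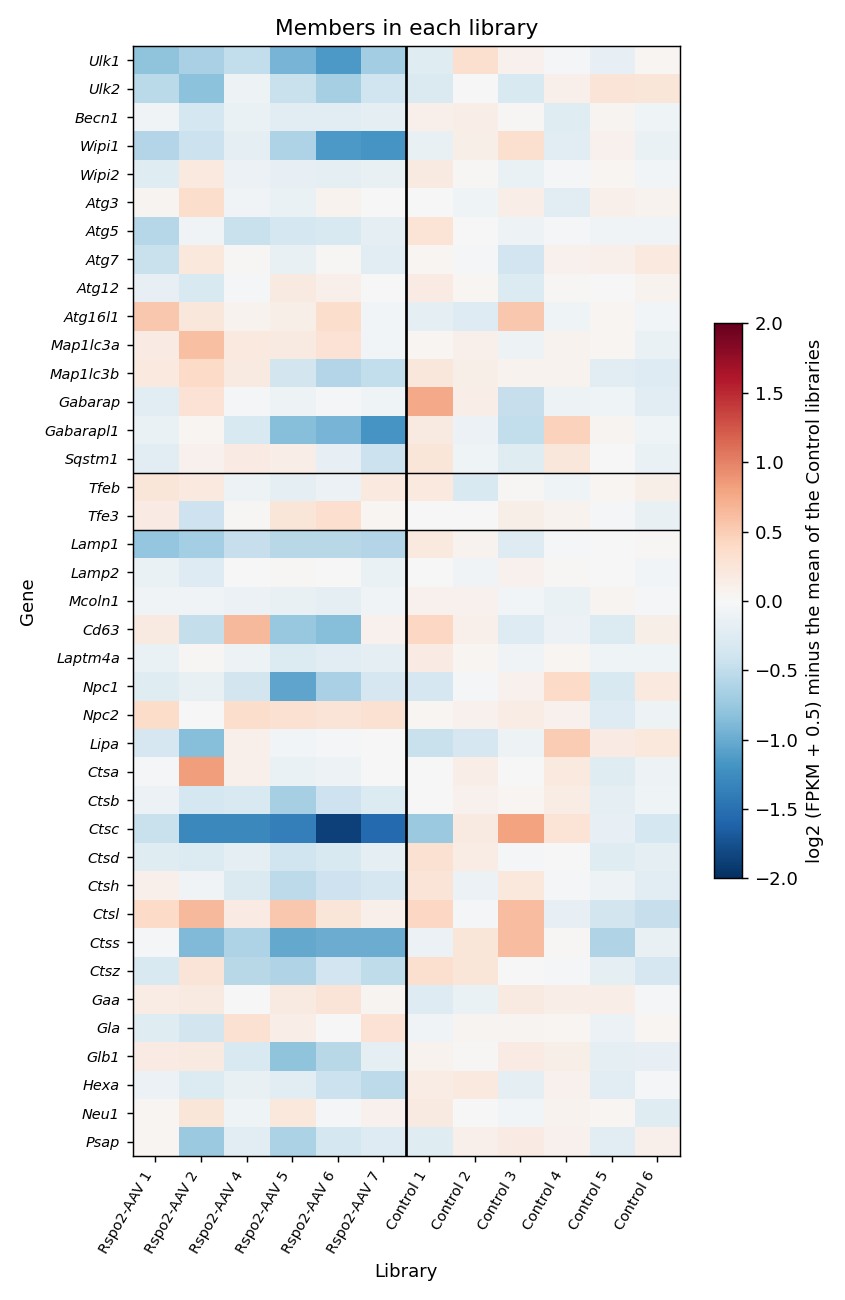
Log2(FPKM + 0.5) of each gene in each library minus the mean of the 6 Control libraries, with Rspo2-AAV libraries left of the line and Control libraries right; blue is lower and red higher, and the horizontal lines part autophagy, TFEB family and lysosome genes. Ulk1 and Lamp1 are blue in all 6 Rspo2-AAV columns, and Ctsa stands out in Rspo2-AAV 2.

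Library by library, 22 to 31 of the 39 genes lay below the Control mean in the Rspo2-AAV libraries, and 12 to 27 in the Control libraries. Rspo2-AAV 5 had the most genes at least 1.5-fold below that mean, 11, followed by Rspo2-AAV 6 with 8, Rspo2-AAV 2 with 7 and Rspo2-AAV 7 with 5. Rspo2-AAV 1 and 4 had 2 each. Genes at least 1.5-fold above it numbered 3 in Rspo2-AAV 2, 1 in Rspo2-AAV 4 and 0 in the other 4 Rspo2-AAV libraries, and 3 in Control 3, 1 in Control 1 and 0 in the other 4 Control libraries. The Control mean is taken over the Control libraries themselves, so their own distances from it are understated.

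Markers of liver macrophages were lower beside Ctsc. Kupffer cells, the resident macrophages of the liver, are rich in lysosomes. Of 8 Kupffer cell markers, 3 were lower in Rspo2-AAV livers (Clec4f, Vsig4 and Marco), 0 were higher and all 8 had negative log2 changes (median -0.99). Over all genes tested, 2.65% were called lower and 2.55% higher. The summed level of the 8 markers ran from 309 to 575 FPKM in Rspo2-AAV libraries, against 464 to 975 FPKM in Control libraries. No marker of the 8 was at 0 in any library. Rspo2-AAV 1, where Ctsc and Ctss were highest in its group, also had the highest sum of its group, and Control 3, where both were highest, had the highest sum of all. Not every library matched in this way: Control 1 had the lowest Ctsc of the Control group, while its sum of 635 FPKM was above those of Control 5 and 6, at 464 and 507 FPKM. Cd5l, which was not called, made up 308 of the 575 FPKM of Rspo2-AAV 1. Of the 3 called markers, Vsig4 was highest of its group in Rspo2-AAV 1. Clec4f and Marco were highest in Rspo2-AAV 2 (78.2 and 14.4 FPKM, against 60.1 and 8.75 FPKM in Rspo2-AAV 1). Ctsc was at 7.36 FPKM in Rspo2-AAV 2. Of 8 recruited macrophage markers, 2 were lower (Trem2 and Cd68) and 0 higher, with sums of 176 to 324 FPKM in Rspo2-AAV and 220 to 481 FPKM in Control libraries. Most of each sum was Lyz2, which averaged 183 FPKM in Rspo2-AAV and 292 FPKM in Control livers. Lyz2 was not called (limma adjusted p = 0.115). Log2 changes were negative for 7 of the 8 markers, and Gpnmb had 0.11. The part of these cells in the changes of Ctsc and Ctss was not tested. In whole liver, fewer cells of a type and less RNA per cell cannot be told apart.

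Of 6 hepatic stellate cell markers, 4 were lower (Lrat, Dcn, Colec11 and Rgs5), with sums of 58.1 to 99.6 FPKM in Rspo2-AAV and 109 to 164 FPKM in Control libraries, ranges that did not meet. Over all genes tested, 2.65% were called lower, and for 1.62% all Rspo2-AAV libraries lay below all Control libraries. Of 6 sinusoidal endothelial markers, 0 were called, with sums of 35.4 to 69.3 FPKM in Rspo2-AAV and 38.9 to 72.9 FPKM in Control libraries. Of 6 hepatocyte markers 0 were called, with 4 negative and a median log2 change of -0.14. No marker of the cholangiocyte list, the neutrophil list or the lymphocyte list was called either, with medians of 0.32, -0.0024 and -0.26 over the 4, 4 and 3 tested genes. The 12 pancreatic acinar markers had a median of 5.16 and 0 calls, and their sum ran from 3.99 to 52625 FPKM in Rspo2-AAV and from 4.34 to 16.0 FPKM in Control libraries.

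**Figure D4:**
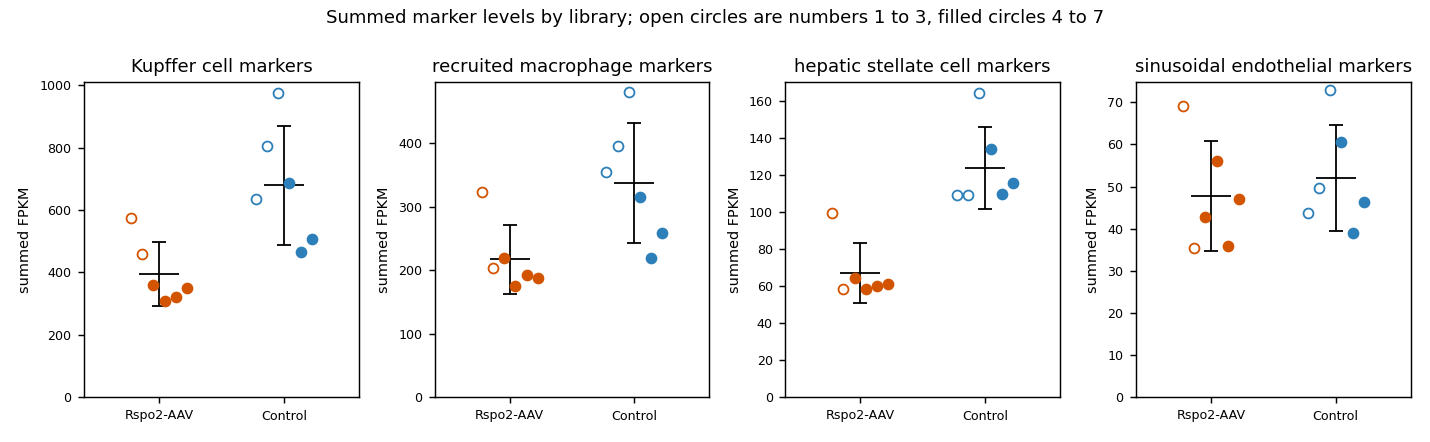
Summed FPKM of the marker genes of 4 cell types in each library, with Rspo2-AAV left and Control right; black marks are the mean and SD (n = 6 each), and open circles are libraries numbered 1 to 3. Stellate cell sums are apart between the groups, macrophage sums overlap, mainly through Rspo2-AAV 1 and the lower Control libraries, and endothelial sums overlap throughout.

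The other genes of the pathway gave few calls. Of 40 tested further autophagy genes, 2 were lower and 1 was higher (median log2 change -0.15). Atg14, which directs the Beclin 1 lipid kinase complex to autophagy, was at 3.13 ± 0.615 FPKM in Rspo2-AAV and 5.44 ± 0.962 FPKM in Control livers (SD, n = 6 each; -0.71 ± 0.13, adjusted p = 0.00909), and the groups did not overlap. Its call held without each library in turn and was lost with TPM scaling (adjusted p = 0.0590). Nbr1, a cargo receptor related to p62, had -0.35 ± 0.09 (adjusted p = 0.0495), a call lost in 11 of 12 fits that left out 1 library (adjusted p up to 0.121). Tmem41b, a lipid scramblase of the endoplasmic reticulum, rose by 0.65 ± 0.17 (adjusted p = 0.0440), a call lost in 9 of 12 such fits (adjusted p up to 0.105).

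Of 33 tested further lysosomal hydrolases and cofactors, 2 were lower and 0 higher (median -0.20, with 26 negative). Ppt1, which removes palmitate from proteins, was at 6.44 ± 0.493 FPKM in Rspo2-AAV and 8.88 ± 0.604 FPKM in Control livers (SD, n = 6 each; -0.44 ± 0.08, adjusted p = 0.00889). Gm2a, the activator that presents the ganglioside GM2 to hexosaminidase A, was at 16.7 ± 2.09 FPKM in Rspo2-AAV and 23.9 ± 3.09 FPKM in Control livers (-0.50 ± 0.11, adjusted p = 0.0211). Neither gene's groups overlapped. Both calls were lost with TPM scaling (adjusted p = 0.210 and 0.171), and that of Gm2a without Rspo2-AAV 5 or 6 (adjusted p = 0.0521 and 0.0537). Of 20 further lysosomal membrane proteins, 1 was lower and 0 higher (median -0.14): Scarb2, the receptor that carries glucocerebrosidase to the lysosome, had -0.46 ± 0.11 (adjusted p = 0.0347), a call lost in 7 of 12 fits that left out 1 library (adjusted p up to 0.0868).

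The vacuolar proton pump, which acidifies the lysosome, and the mTORC1 list had medians nearest 0. Of 18 pump genes, 1 was higher and 0 lower (median -0.02): Atp6v0e2, a small membrane subunit, was at 1.19 ± 0.563 FPKM in Rspo2-AAV and 0.360 ± 0.0822 FPKM in Control livers (SD, n = 6 each; 0.91 ± 0.21, adjusted p = 0.0274). It had as few as 9 reads in a library, and its call was lost in 7 of 12 fits that left out 1 library (adjusted p up to 0.0682). Of 29 tested mTORC1 genes and regulators, 1 was lower and 0 higher (median -0.01). That gene was Deptor, an inhibitor that binds mTOR, at 13.6 ± 2.40 FPKM in Rspo2-AAV and 20.9 ± 3.86 FPKM in Control livers (-0.61 ± 0.15, adjusted p = 0.0346), a call also lost in 7 of 12 such fits (adjusted p up to 0.0827). Shares called lower were 5.00%, 6.06%, 5.00%, 0% and 3.45% of the 5 lists in the order given, beside 2.65% of all genes tested. These lists too were chosen with earlier results of these data known.

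**Figure D5:**
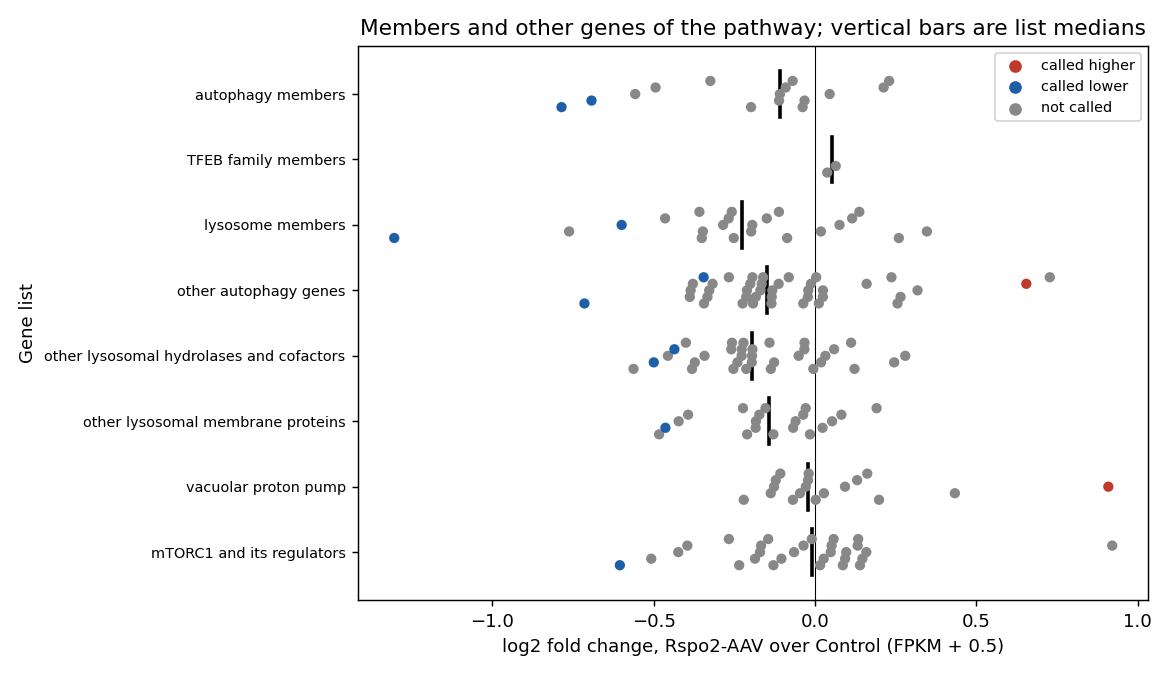
Log2 fold change of Rspo2-AAV over Control livers for every tested gene of the 3 groups of the list and of 5 further lists of the pathway; each point is a gene, red called higher, blue called lower and grey not called, and vertical bars are list medians. Medians of the lysosomal lists lie between -0.23 and -0.14, and those of the proton pump and mTORC1 lists at -0.02 and -0.01.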

How the data were processed

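Livers of 12 Apoe knockout mouse samples were profiled, 6 Rspo2-AAV and 6 Control. The deposited values are FPKM, 1 column per sample, for 54532 genes. Tools named in the submitters' processing notes, without roles or order, were DESeq2 1.20.0, HISAT2 2.0.5 and featureCounts 1.5.0-p3, and the build was GRCm38 (mm10). Per the labels' protocols, poly-A RNA was used and the strand type of the libraries is left as either kind, so genes on opposite strands cannot be told apart where exons overlap. FPKM times the deposited gene length came out as whole reads within 0.01 (100.0% of values), and the library sizes in the FPKM followed median-of-ratios factors. The libraries held 14295644 to 22195576 recovered reads.

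Tests were run in R 4.3.3 with limma 3.58.1, as a linear model with a trended empirical Bayes variance. Values were log2(FPKM + 0.5) of genes averaging 0.5 FPKM or more, with Benjamini-Hochberg adjustment over all 13447 genes. Fold changes on this scale understate those of low genes. The fit was also run on simulated data in which each gene varied on its own. Such data hold no effect shared across a library, such as pancreatic reads, so they cannot check the fit for it. Named genes were all 39 members and, from each further list, up to 4 called genes by smallest p. The members and lists were chosen with earlier results of these data known. Alternatives were other pseudocounts, filters, TPM scaling, limma-voom on the recovered reads, a replicate block, a term for the numbers and subsets of libraries.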

Additional observations from a re-analysis of the deposited data

Results flagged for a closer look

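In 5 of 78 groups of 6 libraries (39 genes in 2 groups), the most extreme library was separated from the next by more of the whole range, on the log2 scale, than Dixon's critical value for 6 samples allows. Chance flags about 1 group in 20. Of the 5, 4 lay in Rspo2-AAV 2, the library with 10.5% mitochondrial reads: Ctsa was high at 64.0 FPKM, Ctsz high at 219 FPKM, Wipi2 high at 11.9 FPKM and Npc2 low at 15.9 FPKM. The other was Atg5 in Control 1, high at 28.0 FPKM. None of these 5 genes was called over all 12 libraries.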

How the results depend on the processing

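Over all 12 libraries, 343 genes were called higher and 356 lower, with 0 higher and 2 lower among autophagy genes, 0 and 2 among lysosome genes, 0 and 0 for Tfeb and Tfe3, and 2 and 6 over the further lists. The count-based test, limma-voom on the recovered reads, called 342 higher and 321 lower, with the same counts for autophagy and lysosome genes. TPM scaling gave 199 and 183 calls over all genes, 1 lower autophagy gene, and 1 higher and 1 lower over the further lists. TPM scaling without Gm23935, chosen after seeing the data, gave 220 and 225, 1 lower autophagy gene, and 1 and 2. With no filter on low values the counts were 195 and 216, 1 lower autophagy gene, and 0 and 3. A minimum mean of 1 FPKM, and a term for the numbers, each gave 1 higher call over the further lists. The term for the numbers gave 416 higher and 455 lower over all genes, with 3 lower autophagy and 3 lower lysosome genes. Numbers 1 to 3 alone gave 0 calls of any kind, with 955 genes at an unadjusted p under 0.05. Numbers 4 to 7 alone gave 853 and 931, with 2 lysosome genes higher, and 7 and 12 over the further lists. Without Rspo2-AAV 4 and 5 there were 117 and 120, 1 lower lysosome gene, and 0 and 2. Without the 3 libraries with Xist there were 807 and 908, 1 higher and 5 lower lysosome genes, and 7 and 10. With a replicate block there were 145 and 152, 1 lower autophagy gene, 0 lower lysosome genes and 1 lower over the further lists. The block kept the call of Ulk1 (adjusted p = 0.0447), and Lamp1, Wipi1 and Ctsc lost theirs (adjusted p = 0.0820, 0.152 and 0.103). Numbers shared between the groups did not pair the libraries: correlations of same-numbered libraries ran from -0.249 to 0.156, and 1 of 5 pairs correlated best with its own number. Leaving out 1 library at a time gave 162 to 421 higher and 170 to 492 lower genes, 1 to 3 lower autophagy genes, 2 to 3 lower lysosome genes, and 0 to 4 higher and 2 to 8 lower over the further lists. The cause of these shifts was not tested.

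Signs turned only in genes that were not called over all 12 libraries. Among numbers 1 to 3, Map1lc3b was at 0.15, Gabarapl1 at 0.093, Atg7 at 0.013, Tfe3 at -0.16, Gla at -0.32 and Glb1 at 0.082 on the log2 scale. Among numbers 4 to 7, Gabarap was at 0.079, Atg3 at -0.019, Atg12 at 0.034 and Tfeb at -0.081. Without the libraries with Xist, Atg3 was at -0.012, Atg12 at 0.0038, Tfeb at -0.048 and Ctsa at -0.026. Gla was at -0.025 with the block, at -0.018 with the term for the numbers and at -0.083 without Rspo2-AAV 4 and 5. Leaving out 1 library moved Sqstm1 between -0.12 and 0.0034, Gabarap between -0.12 and 0.12, Atg3 between -0.018 and 0.082, Atg12 between -0.094 and 0.016, Tfeb between -0.022 and 0.085, Ctsa between -0.030 and 0.16, and Gla between -0.041 and 0.094. The log2 change of Rspo2 itself was 7.30 among numbers 1 to 3 (limma adjusted p = 0.0521). The 6 libraries per group and 94 reads at the lowest member, Gla, limit how small a change could be called.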
